A study of Homo sapiens with 2 samples.

Results

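The genes described are those of the mitochondrial ribosomal proteins, taken as every gene whose symbol in the files is MRPL or MRPS followed by digits and an optional letter. The letter L marks the large and S the small subunit of the mitochondrial ribosome. The rule found 76 of the 23611 genes with a symbol (47 L and 29 S), measured in 167 of the 45033 transcript rows. It used names and no measured value. The RNA came from Panc1 cells, a human line established from a carcinoma of the pancreatic duct. The labels give them as pretreated for 24 h with clofibrate or with DMSO, taken here as the solvent control. Clofibrate is a lipid-lowering fibrate and an agonist of PPARalpha, a nuclear receptor. There was 1 array per treatment. The clofibrate dose is not given in the sources used here. By its design the study looked for genes that differ with treatment. Total RNA of whole cultures was labelled with Cy3 and read on 1-colour NimbleGen arrays, so fewer cells expressing a gene and less RNA per cell cannot be told apart.

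The mitochondrial ribosome makes the few proteins that mitochondrial DNA encodes, which are core subunits of the respiratory chain and ATP synthase. Its RNA comes from mitochondrial DNA, but its proteins are encoded in the nucleus, made in the cytosol and imported, so nuclear genes on many chromosomes have to supply one particle. Some of these proteins descend from bacterial ribosomal proteins and others are specific to mitochondria.

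Levels are log2 intensities, a gene's level is the mean of its transcript rows, and a difference is clofibrate minus DMSO. Genes whose mean over both arrays reached the median gene's (8.51) are called bright, and 11806 genes were. The random probes, a background reading, were at 5.61 with DMSO and 5.59 with clofibrate, the median transcript row was at 8.65 on both arrays, and Pearson r between the arrays over all genes was 0.985. With 1 array per treatment there is no replicate check, no test was run, and the differences below describe these arrays only. As a scale for the scatter between the arrays, the SD of differences among genes of like level ranged from 0.20 to 0.33 for the bright members. Of the fixed markers, KRT8 (9.64 on both arrays) and KRT18 (9.41 with DMSO, 9.51 with clofibrate), keratins of simple epithelium, were bright. KRT19, another keratin of ductal epithelium, lay at 5.65 and 5.12, near or below the random probes, and of the duct genes CA2 was bright (11.96 and 11.60) while SOX9 and CFTR were not. Most markers of other cell types were not bright, and those that were included CEL, of acinar cells, and COL1A1, of fibroblasts. Whether such readings bear on the values below was not tested, nor was any part of pseudogene copies, which mitochondrial ribosomal protein genes are known to have.

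Most mitochondrial ribosomal protein genes read slightly higher with clofibrate, and none of the bright ones reached a 1.5-fold difference. Of the 76 genes 72 were bright, and of these 50 lay above 0 and 22 below, which is 69.4% above 0 against 52.1% of all bright genes. The median difference was 0.08, with quartiles of -0.02 and 0.18, beside a median of 0.01 and quartiles of -0.16 and 0.17 over all bright genes. In 65 of the 72 the difference was within 0.3 of 0. Of all bright genes, 1.30% read higher by 1.5-fold or more and 1.33% lower by as much. For 2-fold or more these shares were 0.136% higher and 0.110% lower. Read against these shares, 0 of 72 at either limit is not a result about the members. The difference exceeded 1 SD of genes of like level in 15 bright members and 2 SD in 1, MRPS34. The shares of all bright genes past these SDs, or within 0.3 of 0, were not counted. These counts are therefore not a result about the members.

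**Figure D1:**
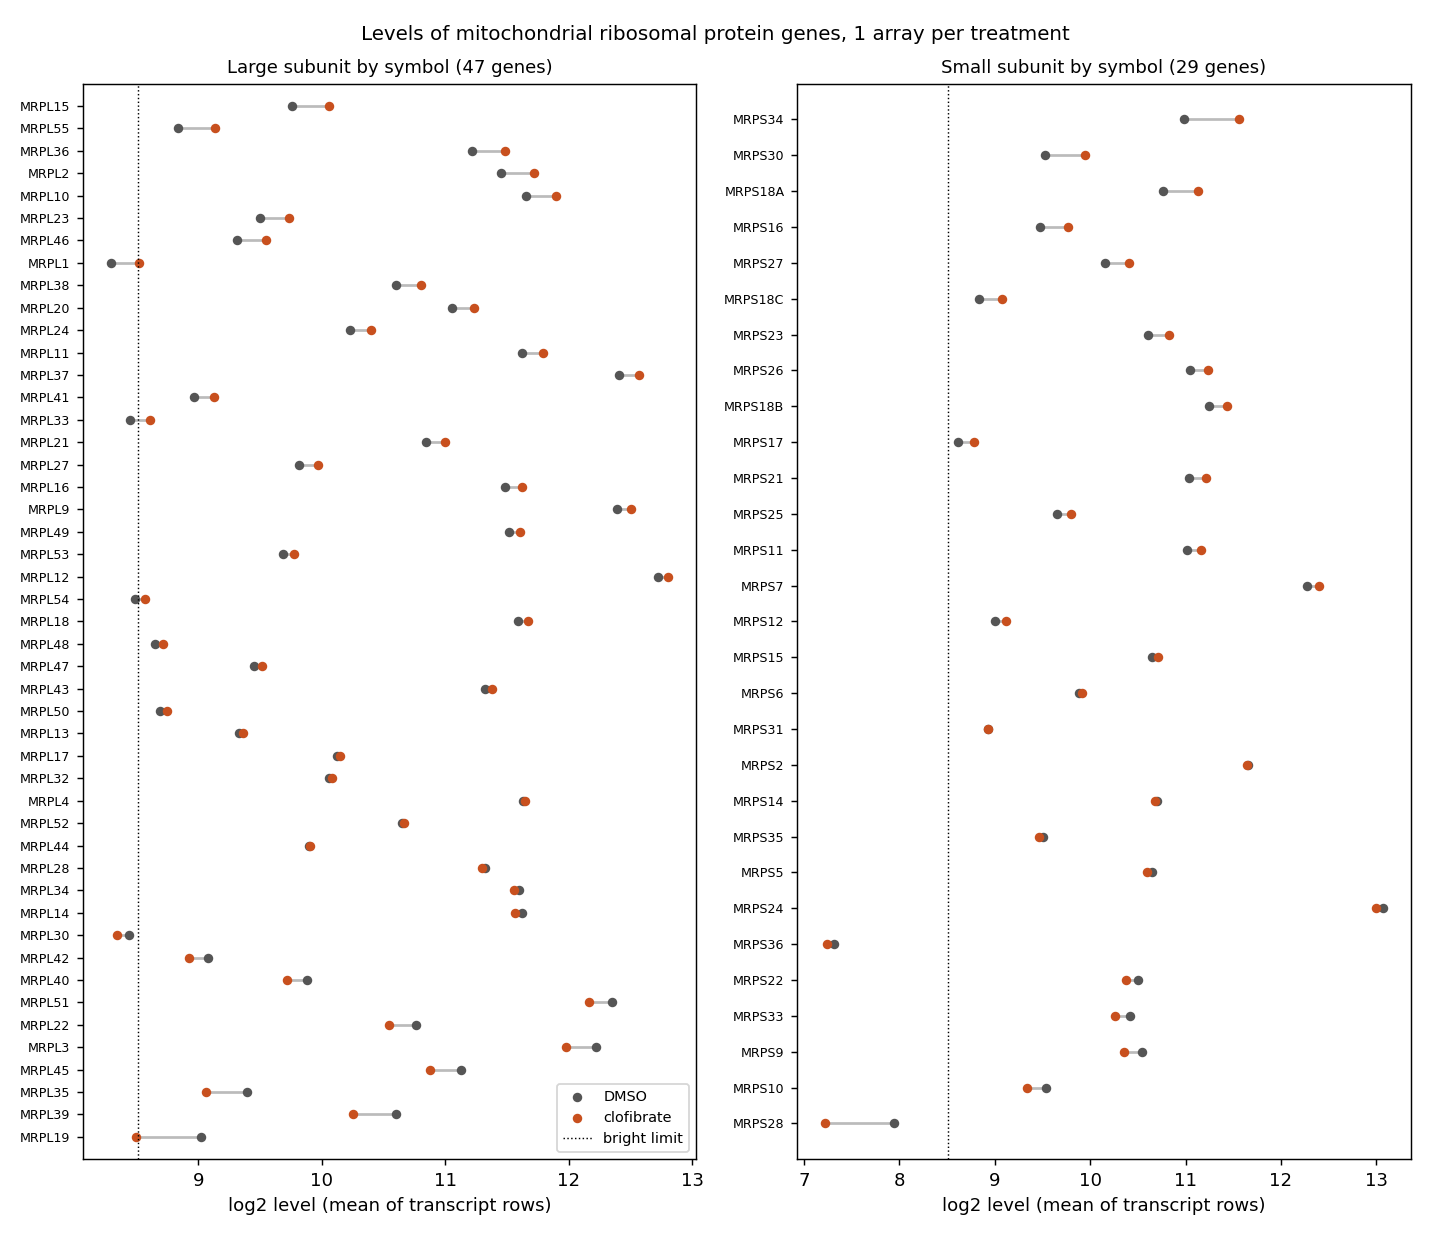
Log2 level of each of the 76 mitochondrial ribosomal protein genes with DMSO (grey) and clofibrate (orange), mean over the gene's transcript rows, 1 array per treatment, large subunit at left and small subunit at right, ordered by difference. The dotted line is the bright limit of 8.51. Most pairs of points lie close together, MRPS34 and MRPL19 are the widest pairs among the bright genes, and MRPS28 is the widest pair of all.

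The medians of the subunits lay close together. The 45 bright genes of the large subunit had a median difference of 0.08, with 33 above 0 and 12 below. The 27 bright genes of the small subunit had a median of 0.12, with 17 above and 10 below. The large subunit's median was thus lower by 0.04, against quartiles of -0.02 to 0.16 for the large and -0.03 to 0.21 for the small subunit. By share above 0 the order was the other way, 73.3% for the large and 63.0% for the small subunit. Counted by transcript rows, 69 of 108 rows of the large subunit and 40 of 59 of the small subunit lay above 0, with a median of 0.07 in each. Of the rows of all bright genes 51.6% lay above 0, while the rows counted here include those of members that were not bright. The symbols do not fully follow the particle. MRPS18A and MRPS30 are named for the small subunit but sit in the large one, and MRPS36 is now known as KGD4, a component of the 2-oxoglutarate dehydrogenase complex. Sorted by place in the particle, the medians were 0.08 for 47 bright large-subunit genes and 0.11 for 25 bright small-subunit genes.

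**Figure D2:**
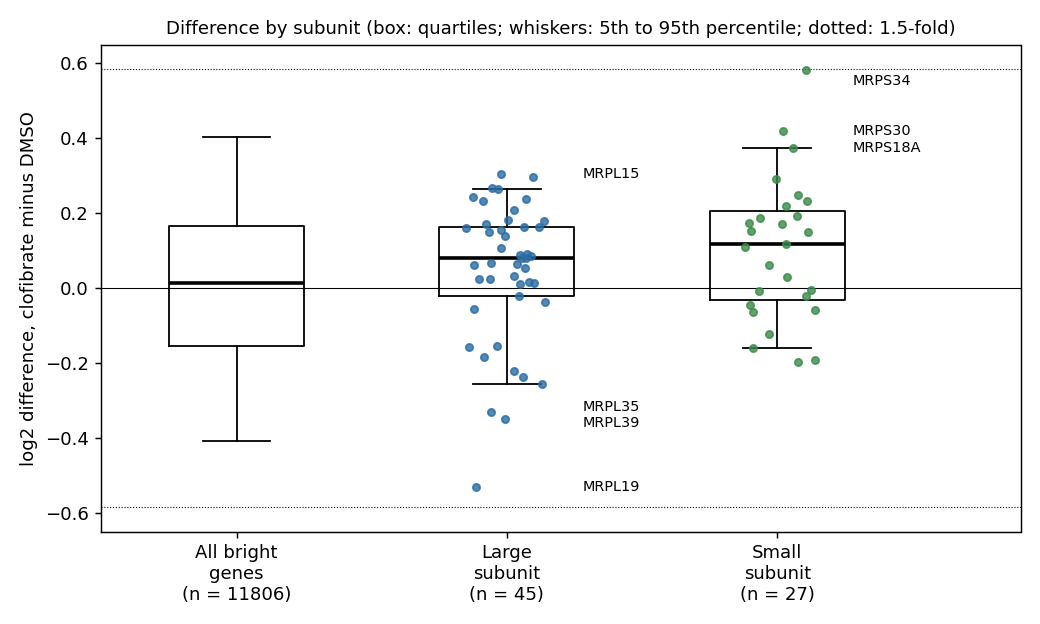
Log2 difference, clofibrate minus DMSO, for all bright genes and for the bright members of each subunit by symbol (points are genes). Boxes show quartiles, the thick line the median, whiskers the 5th and 95th percentiles, and dotted lines a 1.5-fold difference. The medians of both subunits lie above that of all bright genes, their boxes overlap its box and are narrower, and no point crosses the dotted lines.

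Proteins of bacterial descent and proteins specific to mitochondria also lay close together. The 45 bright genes of the bacterial type had a median of 0.11, with 32 above 0, and the 27 bright mitochondrion-specific genes had a median of 0.07, with 18 above 0.

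MRPS34, a mitochondrion-specific protein of the small subunit, stood furthest above 0 among the bright members. It read 10.98 with DMSO and 11.56 with clofibrate, and this difference of 0.58, or 1.498-fold, falls just under the 1.5-fold limit. Its transcript rows both read higher, CR594183 by 0.72 (10.97 to 11.69) and NM_023936, at chr16:1761896-1763141 on hg18, by 0.45 (10.99 to 11.44). The SD of genes of like level was 0.21.

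MRPS30, a large-subunit protein despite its symbol, read 9.53 with DMSO and 9.95 after clofibrate, and the difference of 0.42 rests on 1 of its rows. Row NM_016640 went from 9.38 to 10.15, a difference of 0.78, and row BC007735 from 9.68 to 9.74, a difference of 0.06. MRPS18A, which also sits in the large subunit, read 10.76 and 11.13, a difference of 0.37, with rows at 0.57 and 0.17. It has relatives in MRPS18B and MRPS18C, all descended from the bacterial protein S18. MRPS18B read 11.25 with DMSO and 11.44 with clofibrate, 0.19 higher. MRPS18C, read at 8.84 and 9.07, was 0.23 higher. All 7 rows of the MRPS18 genes lay above 0, from 0.12 to 0.57, against 51.6% of the rows of bright genes. Among the rows of all members 109 lay above 0 and 58 below. The differences of MRPS18B and MRPS18C were smaller than the SD of genes of like level (0.21 and 0.29). The 7 rows come from few genes on the same arrays and are not separate samples.

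The rest of the 10 highest bright members were spread over both subunits. MRPL15, a large-subunit protein of bacterial type, read 9.76 with DMSO and 10.06 with clofibrate, 0.30 higher. MRPS16, the counterpart of bacterial S16, read 9.47 and 9.76, 0.29 higher, with rows at 0.24 and 0.34. MRPL36, a small protein of bacterial type, was 0.27 higher (11.22 and 11.48). MRPS16 and MRPL36 read higher in each of their rows, and MRPL15 has a single row. MRPL2, whose bacterial counterpart lies near the catalytic centre, was 0.26 higher (11.45 and 11.72). MRPS27, a pentatricopeptide repeat protein of the small subunit, was 0.25 higher (10.16 and 10.41) in its single row.

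MRPL19, the counterpart of bacterial L19, stood furthest below 0 among the bright members. It read 9.02 with DMSO and 8.49 after clofibrate, which is a difference of -0.53, or 1.45-fold lower. This comes from a single row, NM_014763, at chr2:75727419-75736365 on hg18, and the SD of genes of like level was 0.33. MRPL39, a mitochondrion-specific protein related to threonyl-tRNA synthetase, read 10.60 and 10.25, a difference of -0.35. All 3 of its rows lay below 0, at -0.56, -0.33 and -0.16. MRPL35 read 9.39 and 9.06, a difference of -0.33, but its rows did not run one way. Row NM_016622 went from 9.55 to 8.66 (-0.89), BC020651 differed by -0.23 and NM_145644 by 0.12, although all 3 cover nearly the same stretch of chromosome 2.

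Among the other low members, MRPL3, whose bacterial counterpart also lies near the catalytic centre, read 12.22 with DMSO and 11.98 after clofibrate, which is -0.24, with rows at -0.17 and -0.30. MRPL51, specific to mitochondria, differed by -0.18 (12.35 and 12.17), from rows at 0.03 and -0.40. Of the 10 lowest bright members 7 belong to the large subunit by symbol, and of the 10 highest 5 do, against 45 of all 72 bright members. The 10 highest also include MRPS30 and MRPS18A, which sit in the large subunit despite their symbols. These counts are therefore not a result about the subunits.

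The 4 structures of the particle that follow were described by fixed lists, which are small and share members with the extremes above. The stalk recruits translation factors. All 5 of its genes lay above 0, with a median of 0.09, but most by less than the scatter of genes of like level. MRPL10, the stalk base, read 11.65 with DMSO and 11.90 with clofibrate, 0.24 higher, with rows at 0.39, 0.33 and 0.01. MRPL11, next to it, was 0.17 higher (11.62 and 11.79). MRPL12, the repeated stalk protein, was 0.09 higher (12.72 and 12.81), and the mitochondrion-specific MRPL53 and MRPL54 were 0.09 and 0.08 higher. All 12 rows of these genes lay above 0, by 0.0018 to 0.39, against 51.6% of the rows of bright genes. The rows come from 5 genes on the same arrays and are not separate samples.

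The central protuberance, where the large subunit faces the head of the small one, had 6 of 7 genes above 0 and a median of 0.15, which became 0.08 with each gene's brightest row alone. MRPL55 differed by 0.30 (8.84 and 9.13), but its rows disagreed, NM_181441 at 0.67 and NM_181454 at -0.08, over the same stretch of chromosome 1. MRPL46 was 0.23 higher (9.31 and 9.54) and MRPL38 0.21 higher (10.60 and 10.81). MRPL27 was 0.15, MRPL18 0.08 and MRPL48 0.07 higher. MRPL40 was the member below 0, at -0.16 (9.88 and 9.72).

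Around the exit of the peptide tunnel, where new proteins leave towards the inner membrane, the genes were spread to both sides. Of 6 genes 4 lay above 0, with a median of 0.04, which became -0.02 with the brightest row and -0.10 at the 75th percentile of level. MRPL23 was 0.24 higher and MRPL24 0.18 higher (10.22 and 10.40), while MRPL47 (0.06) and MRPL17 (0.02) were near 0. MRPL45, which tethers the ribosome to the inner membrane, read 11.13 with DMSO and 10.87 after clofibrate (-0.25). MRPL22, which lines the tunnel, read 10.77 and 10.54, a difference of -0.22.

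The listed genes of the head of the small subunit lay mostly below 0. Of the 6 genes on this list 5 lay below 0 and 1 above, with a median of -0.09. MRPS10 read 9.54 with DMSO and 9.34 after clofibrate (-0.20), with rows at -0.07, -0.13 and -0.39. MRPS9 differed by -0.19 (10.54 and 10.35) and MRPS33 by -0.16 (10.42 and 10.26). These are the listed genes of the head that stood among the 10 lowest bright members. MRPS14 (-0.02) and MRPS31 (-0.00) were at about 0, and MRPS7, which binds the small-subunit RNA, was 0.12 higher (12.28 and 12.40). By row, 8 of 10 lay below 0 and 2 above, whereas 51.6% of the rows of bright genes lay above 0. Each of these differences was smaller than the SD of genes of like level, and nothing particular to the head was tested.

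The other 4 genes of the rule were not bright. MRPS28, a small-subunit protein, read 7.94 with DMSO and 7.22 after clofibrate, which is -0.73, or 1.65-fold lower, in its single row, where the SD of genes of like level was 0.43. MRPL1, a protein of the mobile stalk on the other side of the large subunit, read 8.29 and 8.52, 0.23 higher, with all 3 rows above 0. MRPL30 read 8.43 and 8.34, a difference of -0.09, from 4 rows between -0.40 and 0.46. Its highest difference came from its dimmest row, NM_016503, which read 5.64 with DMSO, at about the random probes, and 6.10 with clofibrate. MRPS36 read 7.31 and 7.24, a difference of -0.07, and its row NM_033281 was dimmer than the random probes with either treatment (5.56 and 5.39).

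Rows of one gene give a further view of the error, since each is a separate set of 3 probes on the same arrays. Of the 58 members with more than 1 row, 32 had every row in one direction, 25 of them above 0 and 7 below, and 26 had rows on both sides. The like share over all genes with more than 1 row was not counted, so these counts are not a result about the members. The gap between the lowest and highest row of a gene had a median of 0.24 and reached 1.01 in MRPL35. It exceeded 0.5 in 4 members, MRPL35, MRPL30, MRPL55 and MRPS30. Pooled over these 58 members, the SD between rows of one gene was 0.20. The SD between the bright members was 0.19, an unlike measure, since it is taken over means of rows. A difference of that size is within the pooled spread between rows, but the rows of single members agreed more or less closely than that. The 18 members with 1 row have no such spread of their own.

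**Figure D3:**
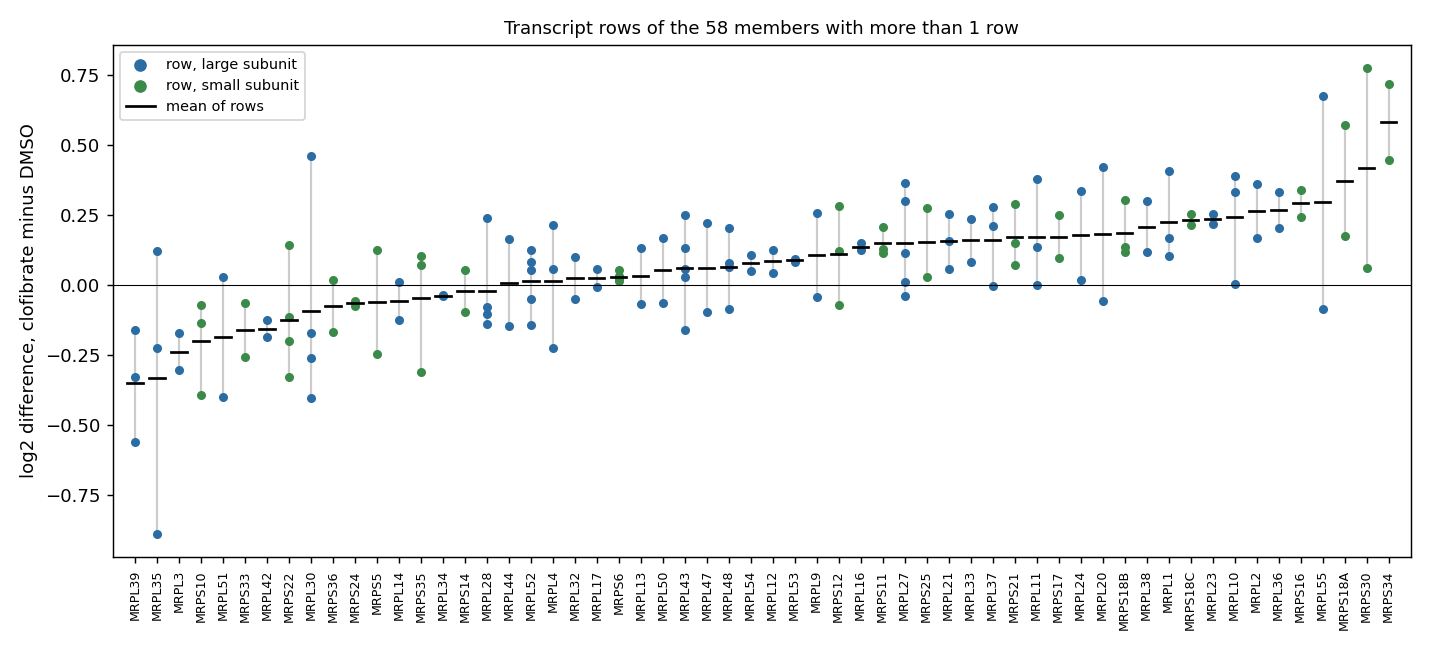
Log2 difference, clofibrate minus DMSO, of each transcript row (point) of the 58 members with more than 1 row, with the gene's mean as a bar, ordered by that mean. Blue marks the large and green the small subunit by symbol. Rows of MRPL35, MRPL30, MRPL55 and MRPS30 lie furthest apart, and both rows of MRPS34 lie above 0.4.

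Promoter sequence was set beside these values, because many nuclear genes of mitochondrial proteins carry sites for ETS-family factors such as GABPA, for YY1 and for NRF1. RefSeq (GRCh38.p14) gave a window of 250 bases before to 50 after the start for 68 members. The ETS core CCGGAAG, on either strand, was in 28 of these windows (41.2%), against 10.7% of all 27305 windows and 19.7% of those of 7936 bright genes. The YY1 core AAGATGGC was in 20 (29.4%), against 3.03% of all windows and 5.91% of those of bright genes. The NRF1 core GCATGCGC was in 6 (8.82%, against 3.27% and 5.75%) and the E-box CACGTG in 7 (10.3%, against 7.43% and 10.5%). In 8 windows there were both an ETS and a YY1 core, and in none did they overlap. A match is a description of the letters and not a site. The medians of the difference were set side by side with and without each core, over few genes for the rarer ones. The bright members with an ETS core had a median of 0.09 (27 genes) and those without one 0.06 (38 genes). With and without a YY1 core the medians were 0.09 (20 genes) and 0.08 (45 genes). For the NRF1 core they were 0.02 (6 genes) and 0.08 (59 genes), and for the E-box 0.13 (6 genes) and 0.07 (59 genes).

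The 100 bases before the start of 6 members are given to set the letters beside the values, on the gene's strand from 5′ to 3′, with ETS cores (CCGGAAG or its reverse complement CTTCCGG) and YY1 cores (AAGATGGC or GCCATCTT) in capitals. The first 2 are high members with an ETS core, and MRPS18A also has a YY1 core in its window, outside the printed bases. MRPL47, near 0, has both cores in the printed bases. MRPL3 is a low member with an ETS core, and the last 2 are the lowest bright members, which have none of the searched cores in these bases.
MRPS34 (chr16:1773135-1773234, minus strand): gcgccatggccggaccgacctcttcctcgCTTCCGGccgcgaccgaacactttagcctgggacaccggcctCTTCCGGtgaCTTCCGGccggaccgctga
MRPS18A (chr6:43687792-43687891, minus strand): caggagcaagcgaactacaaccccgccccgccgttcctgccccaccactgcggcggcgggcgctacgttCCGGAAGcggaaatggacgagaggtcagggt
MRPL47 (chr3:179604639-179604738, minus strand): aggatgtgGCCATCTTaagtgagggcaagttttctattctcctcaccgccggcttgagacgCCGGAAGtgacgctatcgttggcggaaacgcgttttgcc
MRPL3 (chr3:131502972-131503071, minus strand): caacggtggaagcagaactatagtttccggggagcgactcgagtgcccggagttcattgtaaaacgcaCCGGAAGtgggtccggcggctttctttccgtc
MRPL39 (chr21:25607482-25607581, minus strand): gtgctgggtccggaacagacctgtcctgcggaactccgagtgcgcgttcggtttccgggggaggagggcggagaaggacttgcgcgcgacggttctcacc
MRPL19 (chr2:75646683-75646782, plus strand): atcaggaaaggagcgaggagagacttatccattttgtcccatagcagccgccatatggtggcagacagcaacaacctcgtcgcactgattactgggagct
MRPS34, the highest bright member, shows 3 ETS cores, whereas MRPS30, the next highest, has none in its window.

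Some members share their start region with a neighbour on the other strand. Such pairs, with starts at most 1000 bases apart on GRCh38.p14, numbered 18, and in 16 both genes were bright. In 12 of the 16 both genes lay on the same side of 0, 10 of them above, and in 4 they lay on opposite sides. One pair joins members of both subunits, MRPL46 (0.23) and MRPS11 (0.15, read at 11.01 and 11.16), whose starts are 320 bases apart on chromosome 15. MRPS12 (0.11) lies 181 bases from SARS2, the mitochondrial seryl-tRNA synthetase (0.29). MRPL40 (-0.16) and its neighbour HIRA (-0.15), a histone chaperone, both read lower, whereas MRPL18 (0.08) and TCP1 (-0.25), a chaperonin subunit, lay on opposite sides. Gene pairs outside the members were not counted, so these pair counts are not a result about the members.

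Genomic span went with the difference, among the members and among all genes. Among bright genes in general, lower differences went with a longer span, taken as what the longest transcript row covers of the genome. The Spearman correlation was -0.179 over these genes and -0.291 over the 72 bright members. Both are across genes of the same arrays, which are not independent replicates. Bright members were short, with a median span of 8.18 kb against 16.9 kb for all bright genes. The 36 shorter members had a median difference of 0.13, with 30 above 0, and the 36 longer ones a median of 0.03, with 20 above 0. Of all bright genes, the 2880 whose span lay between the members' quartiles had a median of 0.06 and 61.1% above 0, which is nearer to the members' 0.08 and 69.4% than the values over all bright genes. A trend over span fitted to genes bright or not, and so not the trend of bright genes alone, was also removed. The members' median was then 0.07 and 47 of 72 lay above 0, beside 0.01 and 52.0% for all bright genes. That removal left the values of all bright genes nearly as they were, so it does not decide how far the members follow the bright genes' trend. There were exceptions, since MRPS27, of 100.7 kb, was 0.25 higher and MRPL51, of 1.14 kb, differed by -0.18. The difference showed no such relation to the mean level of the members (Spearman 0.008).

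**Figure D4:**
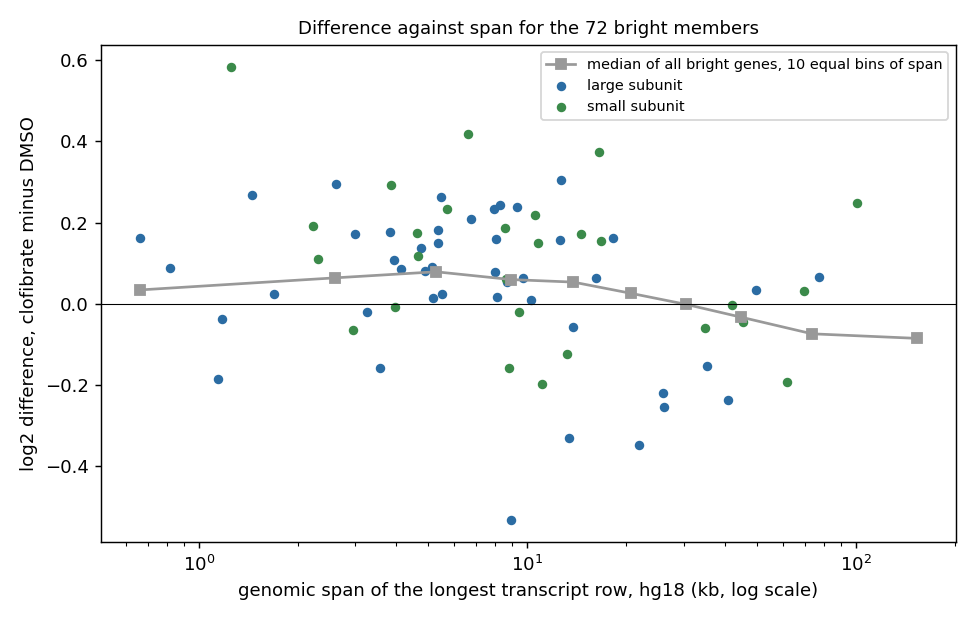
Log2 difference, clofibrate minus DMSO, against the genomic span of the gene's longest transcript row (kb, log scale) for the 72 bright members (points), with the median of all bright genes in 10 equal bins of span (squares). Bin medians are between 0.03 and 0.08 up to the middle spans and fall below 0 in the longest bins, and the members scatter around them.

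Genes that work with the mitochondrial ribosome were set beside the members by fixed lists. Of 7 further subunits whose symbols fall outside the MRPL and MRPS rule, all bright, 4 lay above 0 and 3 below. Their median was 0.10, and -0.00 with the level filter set at the 75th percentile. ICT1, a peptidyl-tRNA hydrolase built into the large subunit, was 0.34 higher (9.03 with DMSO, 9.37 with clofibrate). DAP3, a GTP-binding protein of the small subunit, differed by -0.15, and PTCD3, under its older symbol FLJ20758, by -0.17. With these subunits added and MRPS36 left out, 54 of 79 bright genes of the particle lay above 0, with a median of 0.09. Assembly factors had a median of 0.06 over 18 bright genes, with 11 above 0 and 7 below. The furthest from 0 were DDX28, a helicase (0.35), FTSJ2, now MRM2, a methyltransferase of the large-subunit RNA (0.24), and C18orf22, now RBFA, a factor of small-subunit maturation (0.21).

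The lists of factors that work on the ribosome or supply it held genes on both sides of 0. Translation factors had a median of -0.06 over 11 bright genes, with 5 above 0 and 6 below, and of -0.15 with no filter on level. TUFM, the elongation factor Tu of mitochondria, was 0.36 higher (12.53 and 12.89), whereas LRPPRC, which stabilises mitochondrial messenger RNA, differed by -0.32 (12.48 and 12.16), and CCDC44, now TACO1, by 0.22. The mitochondrial aminoacyl-tRNA synthetases had a median of -0.01 over 14 bright genes, with 6 above and 8 below, and a median of 0.01 once the span trend was removed. IARS2 differed by -0.43, RARSL, now RARS2, by -0.41 and MARS2 by 0.33. Of 4 bright genes of mitochondrial transcription 3 lay below 0. Their median was -0.13, but 0.05 at the 75th percentile of level and 0.04 with the brightest row. TFAM, which packages and transcribes mitochondrial DNA, read 9.14 with DMSO and 8.34 after clofibrate, which is -0.80, in its single row, and was the only bright gene of these 3 lists past the 1.5-fold limit. TFB2M and C17orf42, now TEFM, factors of transcription initiation and elongation, each differed by -0.13.

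Other large assemblies had medians of like size. The respiratory chain and ATP synthase list had a median of 0.12 over 51 bright genes, with 36 above 0 and 15 below, and COX6A1, a cytochrome c oxidase subunit, was its furthest gene at 0.52 (11.25 and 11.77), followed by the complex I subunits NDUFB8 and NDUFB2 at 0.37 each. Cytosolic ribosomal protein genes had a median of 0.09 over 76 bright genes, with 54 above 0 and 22 below. Their large subunit had a median of 0.07 (28 of 46 above 0) and their small subunit 0.10 (26 of 30 above 0), and RPL37 (0.43) and RPL3L (0.35) were among the furthest from 0. The members' median of 0.08 was therefore not set apart from that of the cytosolic ribosome, and no gene of either list read 1.5-fold higher or lower among the bright ones.

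**Figure D5:**
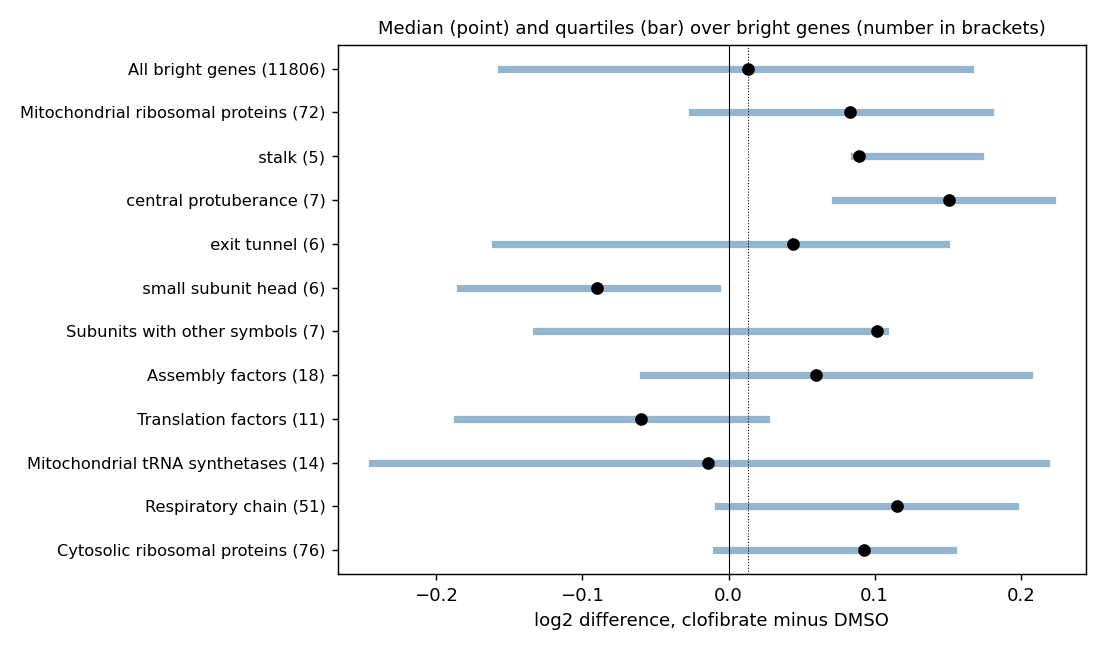
Median (point) and quartiles (bar) of the log2 difference, clofibrate minus DMSO, over the bright genes of each list, with the number of bright genes in brackets. The dotted line is the median of all bright genes (0.01). The members, the respiratory chain and the cytosolic ribosome have medians of 0.08 to 0.12, and the small-subunit head and the translation factors have medians below 0.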

How the data were processed

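Total RNA of Panc1 cells was measured on 1 NimbleGen array per treatment. The authors deposited 1 linear intensity per transcript row. RMA made these summaries, per the submitters' processing notes, with no version named there. Per the file headers each transcript row of the members is a set of 3 probes with positions on hg18. RMA usually brings arrays to a shared distribution, so a shift of most genes together could go unseen.

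Intensities were converted to log2, rows of one symbol were averaged, and the difference was taken as clofibrate minus DMSO. All 76 gene IDs of the members matched the RefSeq table (GRCh38.p14), used for current names, neighbours and promoter windows. Lists were described by counts and medians over bright genes, beside the same over all bright genes, and no test was run. The SD of like level came from 40 equal bins of mean level, and the trend over span from a loess (fraction 0.3) over genes bright or not. The steps were tested on simulated data.

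The members and lists were chosen with earlier results of these data known. Genes named by rule were the 10 highest and 10 lowest bright members, the members that were not bright, those whose rows differed by over 0.5, the members of the 4 structural lists, the MRPS18 genes, MRPS30 and MRPS36, and of each other list the 3 bright genes furthest from 0, of which 1 is not reported here. The neighbour pairs, the printed promoters, and the 2 exceptions to the span trend were picked with their values in view. The results were recomputed with other scalings (centring, quantile normalization and loess on mean level), other filters on level, the brightest row of a gene, removal of the span trend and other ways of counting members. R 4.3.3 with limma 3.58.1 made the other scalings, and Python 3.11.15 with pandas 2.3.3, numpy 2.4.6 and matplotlib 3.10.9 made the rest.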

Additional observations from a re-analysis of the deposited data

How the results depend on the processing

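The members' median lay between 0.07 and 0.09 with centring, quantile normalization, loess on level, no filter, a filter at the 75th percentile, the brightest row of each gene and removal of the span trend, always above that of all genes. Over the 48 bright members with every row in one direction it was 0.15, with 34 above 0. This set was chosen by the differences themselves, which tends to leave out members near 0, and any member with 1 row passes. Its larger median is therefore no check on the main value. At the 75th percentile 44 members passed and 29 lay above 0. The main count of bright members at least 1.5-fold different was 0. It was 1 with centring (MRPS34, which lies at the limit), 1 with no filter (MRPS28) and 2 with the brightest row (MRPS30 at 0.78 and MRPS34 at 0.72). The bacterial-type median minus the mitochondrion-specific one was 0.04, and -0.013 with the brightest row. With the brightest row MRPL35 lay at 0.12 instead of -0.33, MRPL55 at -0.08 instead of 0.30, MRPL51 at 0.03 instead of -0.18 and MRPL10 at 0.01 instead of 0.24, since the other rows of each were left out. The exit tunnel median was 0.04, but -0.10 at the 75th percentile and -0.02 with the brightest row. The central protuberance median was 0.15, and 0.08 with the brightest row. The median of the 7 further subunits was 0.10, and -0.00 at the 75th percentile, and that of the translation factors -0.06, and -0.15 with no filter. The mitochondrial transcription median was -0.13, but 0.05 at the 75th percentile and 0.04 with the brightest row. The small-subunit head stayed below 0 in each of these alternatives. The deposited series values equalled those of the arrays. No paired analysis was possible because there was 1 array per treatment, which also left none to omit. Precision is limited by this number of arrays, and rows near the random probes, in MRPL30 and MRPS36, are a poor guide to a difference.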
